A study of Mus musculus with 4 samples.

Results

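Cytosolic and mitochondrial ribosomal proteins were followed across 4 mouse cell populations profiled on microarrays. Members were taken by gene name: every array gene named Rpl, Rplp or Rps with a number, or Rpsa, formed the cytosolic set, and every gene named Mrpl or Mrps with a number formed the mitochondrial set, with the Rps6k kinases left out. This gave 210 names among 35527 gene names on the array, 132 cytosolic and 78 mitochondrial, and 207 of them had a value on all 4 arrays. The cytosolic set with values held 46 large-subunit genes, 30 small-subunit genes, 7 paralogs, 47 names of pseudogenes and Rps19bp1, a binding protein of Rps19 rather than a ribosomal protein. The mitochondrial set with values held 47 large-subunit genes, 28 small-subunit genes and 1 pseudogene name. Rpl39l, Mrps27 and Mrps36-ps1 each lost a spot to an outlier call on 1 array and are given separately or not at all.

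The study compared iPS-OSH and iPS-J, lines labelled as induced pluripotent stem cells on the C57BL/6 background, ESC, embryonic stem cells on the 129SV background, and MEF, mouse embryonic fibroblasts on the C57BL/6 background. The labels do not say how either iPS line was made. The 3 pluripotent populations were grown in serum with LIF, a cytokine that maintains mouse pluripotent cells, and MEF in serum without it. Each population had 1 array, so the differences below have no replicates behind them and carry no p-value. In comparisons with ESC, strain and cell type cannot be told apart, and the 4 arrays were scanned in 3 sessions, with MEF in one, both iPS lines in another and ESC in a further one, so that scan session and population cannot be told apart except between iPS-OSH and iPS-J.

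Signals are given as scaled signals, on which the 75th percentile of each array is 1000, and differences as log2 ratios of the scaled signal of 1 probe between 2 arrays. The level of one probe says nothing about the level of another. A difference of at least 2-fold, that is 1 on the log2 scale, was counted as higher or lower. Probes printed 10 times on each array gave a spot-to-spot SD of a log2 difference of 0.117 to 0.186, depending on the pair of arrays. That SD covers the printing and scanning of one hybridization and not the spread between cultures.

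Cytosolic ribosomes translate the messages of the nuclear genome, and each is built in the nucleolus from ribosomal RNA made mainly by RNA polymerase I and from small and large subunit proteins, most of them encoded by a single working gene beside many processed pseudogenes. Mitochondrial ribosomes are a separate machine of nuclear-encoded proteins, imported into the organelle, that translate the few messages of mitochondrial DNA for the respiratory chain. Pluripotent stem cells divide quickly and are known for a low overall rate of protein synthesis beside the cells they give rise to.

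The probes behind the members that differed most are shown here because they bear on which transcript was read. All are 60-base array probes, written 5′ to 3′, with their mm9 positions. The Rpl10l probes lie on chromosome 12, minus strand, at chr12:67384403-67384462 for the probe used and chr12:67384868-67384927 for the second probe. The Rpl22l1 probe lies at chr3:28706237-28706296, plus strand, the Rps4y2 probe at chr6:148304043-148304102, plus strand, and the Mrps6 probe at chr16:92112223-92112282, plus strand. The Mrps31 probe spans a splice junction between chr8:23538340 and chr8:23539688, plus strand, and the Rpl3l probe one between chr17:24872413 and chr17:24872681, plus strand.
Rpl10l, probe used: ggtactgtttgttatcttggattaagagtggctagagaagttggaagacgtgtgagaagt
Rpl10l, second probe: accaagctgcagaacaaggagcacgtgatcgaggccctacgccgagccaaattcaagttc
Rpl10, probe used: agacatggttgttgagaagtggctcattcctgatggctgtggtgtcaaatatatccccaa
Rpl22l1: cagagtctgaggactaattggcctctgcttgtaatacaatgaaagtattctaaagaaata
Rpl3l: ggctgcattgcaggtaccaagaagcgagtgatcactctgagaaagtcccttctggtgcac
Rps4y2: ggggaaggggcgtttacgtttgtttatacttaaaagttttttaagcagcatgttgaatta
Mrps31: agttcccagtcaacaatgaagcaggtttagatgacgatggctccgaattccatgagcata
Mrps6: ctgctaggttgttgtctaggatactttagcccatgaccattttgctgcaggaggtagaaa
The longest run that the Rpl10l probe shared with any of the 3 Rpl10 probes was 8 bases, and for Rpl22l1, Rpl3l and Rps4y2 against the probes of Rpl22, Rpl3 and Rps4x it was 6 or 7 bases.

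Paralogs of cytosolic ribosomal proteins held the widest differences in either set. Rpl10l, an intronless copy of the X-linked gene Rpl10 known from the testis, had scaled signals of 30787, 29766 and 26417 on the iPS-OSH, iPS-J and ESC arrays, while its MEF spot read 5.67 and did not stand well above background. All 3 pluripotent populations were thus far above MEF and close to one another. Set against the faintest MEF signal that stood well above background, the pluripotent signals were at least 2059-fold (iPS-OSH), at least 1991-fold (iPS-J) and at least 1767-fold (ESC) higher. These bounds depend on the background correction: on the log2 scale they were 11.01, 10.96 and 10.79, and with normexp correction the values were 8.94, 8.95 and 8.67. The second Rpl10l probe had 6633 in iPS-OSH cells, 5364 in iPS-J cells and 4695 in ESC, against 72.8 in MEF, which is 6.51, 6.20 and 6.01 on the log2 scale. Both probes gave the same order, and the size of the difference depended on the probe. Rpl10 itself, which joins the large subunit late in its assembly, stayed within 2-fold, at 300936 for iPS-OSH, 424708 for iPS-J and 238449 for ESC, against 322996 for MEF.

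Rps4y2, which the reference annotation now lists as the transcribed pseudogene Rps4l, had 65325 in iPS-OSH cells, 59961 in iPS-J cells and 59523 in ESC, against 15261 in MEF. The 3 pluripotent arrays lay close together and above MEF, by 4.28-fold for iPS-OSH, 3.93-fold for iPS-J and 3.90-fold for ESC. Rps4x, the X-linked gene of the same small-subunit protein family, had 99975 for iPS-OSH, 132443 for iPS-J and 140785 for ESC, against 110644 for MEF. The files place the Rps4x probe used on chromosome 3, and the probe placed on X read 99231 for iPS-OSH, 124128 for iPS-J and 93854 for ESC, against 129735 for MEF, so that the probes had opposite signs in iPS-J and ESC over MEF. The probe used was also placed on a chromosome other than that of the RefSeq gene for Rpl12, Rps27 and Rps29, and for none of the 75 mitochondrial subunit genes. Rpl39l, a paralog of Rpl39 known from male germ cells, had 19984 in iPS-OSH and 17335 in iPS-J, against 5524 in MEF, with no usable ESC spot. Its log2 ratio over MEF was 1.86 in iPS-OSH and 1.65 in iPS-J. Rpl39 was within 2-fold, at 127216 in iPS-OSH cells, 169878 in iPS-J cells and 152132 in ESC, against 131176 in MEF. Its other probes were below MEF in iPS-OSH, iPS-J and ESC. Their log2 ratios were -0.59, -0.30 and -0.48 for one and -0.96, -0.29 and -0.59 for the dim other.

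Rpl3l, a paralog of Rpl3 known from heart and skeletal muscle, was dim everywhere, at 71.9 for iPS-OSH, 204 for iPS-J and 304 for ESC, against 29.7 for MEF. It was the paralog on which the pluripotent populations differed most, with a log2 ratio of -2.08 for iPS-OSH over ESC and -1.50 for iPS-OSH over iPS-J. Rpl7l1, a paralog of Rpl7 that acts in ribosome assembly, had 2375 in iPS-OSH and 2642 in iPS-J, 1296 in ESC and 1051 in MEF. Both iPS lines were thus above ESC and MEF, by 1.18 and 1.33 over MEF on the log2 scale, and ESC was within 2-fold of MEF.

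Rpl22l1, a paralog of Rpl22 that can take its place in the ribosome, had 41197 in iPS-OSH, 121493 in iPS-J, 98652 in ESC and 93003 in MEF. The iPS-OSH array alone was low, with a log2 ratio of -1.56 over iPS-J, -1.26 over ESC and -1.17 over MEF. Rpl22 had 147192 in iPS-OSH, 124466 in iPS-J, 147903 in ESC and 141306 in MEF, a span of less than 2-fold. Its dimmer second probe read 6053 in iPS-OSH, 11414 in iPS-J, 5905 in ESC and 7016 in MEF. For iPS-OSH over iPS-J the probes had opposite signs, with log2 ratios of 0.24 for the probe used and -0.92 for the second. Rps27l, a paralog of Rps27 known as a target of p53, and Rpl36al, a paralog of Rpl36a, were within 2-fold on all 4 arrays.

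**Figure D1:**
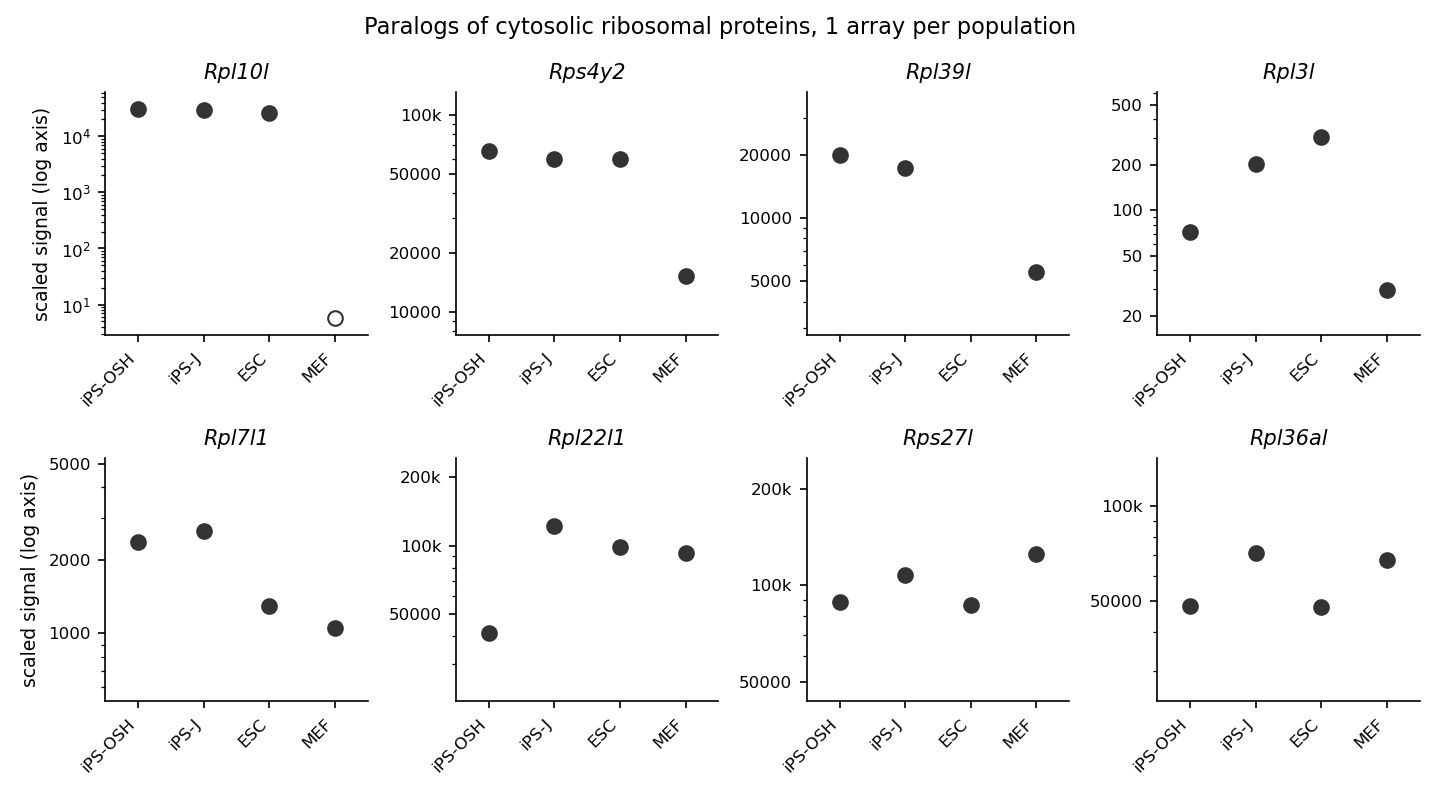
Scaled signal (log axis, a separate range in each panel) of 8 paralogs of cytosolic ribosomal proteins on the iPS-OSH, iPS-J, ESC and MEF arrays, 1 point per array. The open point is not well above background. Rpl10l falls to 5.67 in MEF, Rps4y2 and Rpl39l are lower in MEF, and Rpl22l1 is low in iPS-OSH alone. Rpl39l has no ESC point.

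The cytosolic subunit genes themselves held close together. Against MEF, the number at least 2-fold higher was 0 of 76 for iPS-OSH, 1 for iPS-J and 0 for ESC, and the number lower was 0, 0 and 1. Over the whole cytosolic set, paralogs and pseudogene names included, 4 of 130 were higher and 2 lower in iPS-OSH, 5 of 129 higher and 1 lower in iPS-J, and 4 of 130 higher and 1 lower in ESC. Over all genes tested, 13.4% were at least 2-fold higher and 24.3% lower in iPS-OSH, 16.4% higher and 24.7% lower in iPS-J, and 22.7% higher and 16.6% lower in ESC. The SD of the log2 ratios among cytosolic subunit genes was 0.28 for iPS-OSH, 0.33 for iPS-J and 0.35 for ESC over MEF, against 1.33, 1.59 and 1.64 over all genes.

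Only 5 of 76 cytosolic subunit genes, or 6.58%, ranged over 2-fold or more across the 4 arrays, against 73.1% of all genes well above background on some array. The cytosolic probes were bright, with a median of 204968. Among genes outside the sets with a median signal of 100000 or more, 13.6% of 537 ranged over 2-fold or more. The count of cytosolic subunit genes with such a range was 2 to 9 over the alternatives tried.

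Several members barely moved by the probe used. Rpl13 had 201473 in iPS-OSH, 201796 in iPS-J, 207097 in ESC and 208757 in MEF, the narrowest span of the large-subunit genes, and it was chosen for mention after its values were seen, as were Rpl14 and Rps12. Rpl14 lay between 228240 in iPS-OSH and 246714 in MEF, and Rps12 between 264676 in iPS-J and 292194 in MEF. The dimmer second Rpl14 probe read 11933 in iPS-OSH cells, 16426 in iPS-J cells and 6523 in ESC, against 7734 in MEF. By that probe iPS-J was past 2-fold higher than MEF and ESC, with log2 ratios of 1.09 and 1.33. A second probe of Rpl13 spanned more, with 80303 in iPS-OSH cells, 102263 in iPS-J cells and 67840 in ESC, against 128153 in MEF. Rpl5 and Rpl11, which travel with the 5S ribosomal RNA and can bind Mdm2, the ubiquitin ligase of p53, were also narrow. Rpl5 had 94354 for iPS-OSH, 100459 for iPS-J and 113131 for ESC, against 100659 for MEF. Rpl11 had 200694 in iPS-OSH cells, 197456 in iPS-J cells and 206869 in ESC, against 218906 in MEF, but one of its other probes read 25939 in ESC and 118851 to 155297 on the other arrays.

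The proteins of the stalk, which recruits translation factors to the large subunit, were within 2-fold by the probes used. Rplp0 had 328980 for iPS-OSH, 386249 for iPS-J and 285517 for ESC, against 365237 for MEF. One of its other probes read 145604 for iPS-OSH, 98758 for iPS-J and 80621 for ESC, against 188220 for MEF. By that probe ESC was past 2-fold lower than MEF, with a log2 ratio of -1.22, and another probe stayed within 2-fold. Rplp1 had 225048 in iPS-OSH cells, 306730 in iPS-J cells and 300073 in ESC, against 236725 in MEF. Rplp2 had 192472 for iPS-OSH, 302304 for iPS-J and 293597 for ESC, against 208689 for MEF. Rplp1 and Rplp2, which sit on the stalk as pairs, were with this scaling both higher on the iPS-J and ESC arrays, by 0.34 to 0.53 over MEF on the log2 scale. In iPS-OSH they were close to MEF. The scaling can shift ratios by as much: without it the cytosolic median over MEF went from 0.15 to -0.36 in iPS-J. In ESC it went from -0.06 to -0.50.

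Rpl4, which lines the exit tunnel, was the large-subunit gene lowest against MEF in iPS-OSH and ESC, with 95531 in iPS-OSH cells, 142939 in iPS-J cells and 87281 in ESC, against 183391 in MEF. Its log2 ratio over MEF was -0.94 for iPS-OSH, -0.36 for iPS-J and -1.07 for ESC, and it had 1 probe. Rpl38, known in mice for its part in translating Hox messages, had 170911 for iPS-OSH, 215255 for iPS-J and 246640 for ESC, against 217761 for MEF. Its second probe read differently, with 188317 in iPS-OSH cells, 280071 in iPS-J cells and 183035 in ESC, against 111151 in MEF, so that the probes had the same sign in ESC over MEF and opposite signs in both iPS lines. Rpl21 was the 1 cytosolic subunit gene at least 2-fold higher in iPS-J, at 1078 for iPS-OSH, 1566 for iPS-J and 794 for ESC, against 562 for MEF. Its other probe ran the opposite way, with 721 in iPS-OSH cells, 859 in iPS-J cells and 611 in ESC, against 1107 in MEF.

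In the small subunit, Rps25, which some viral messages need for internal initiation, had 89887 for iPS-OSH, 195692 for iPS-J and 136667 for ESC, against 152965 for MEF. The iPS-OSH array was lowest, with a log2 ratio of -1.12 over iPS-J, and the dim second probe had 1116 in iPS-OSH and 1201 in iPS-J. Rps20 had the same order of arrays at its ends, with 157034 in iPS-OSH and 311640 in iPS-J, 223249 in ESC and 292948 in MEF. Rps6, the target of the S6 kinases, had 159763 in iPS-OSH cells, 255688 in iPS-J cells and 181978 in ESC, against 207998 in MEF. Rps19, the gene most often mutated in human Diamond-Blackfan anaemia, had 116218 for iPS-OSH, 147552 for iPS-J and 121326 for ESC, against 150834 for MEF. Rpsa, known also as a laminin receptor, had 198409 in iPS-OSH cells, 223416 in iPS-J cells and 278992 in ESC, against 188446 in MEF. By the probes used, Rps6, Rps19 and Rpsa each stayed within 2-fold. A dimmer Rps6 probe read 7253 for iPS-OSH, 5298 for iPS-J and 3667 for ESC, against 13852 for MEF. It was past 2-fold lower in iPS-J and ESC, while another Rps6 probe stayed within 2-fold. Other Rpsa probes had log2 ratios of -0.51, -0.90 and 0.22 for ESC over MEF, where the probe used had 0.57.

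Rps3, which lies at the entry of the messenger RNA channel, was the widest of the small-subunit genes, with 125243 for iPS-OSH, 239772 for iPS-J and 80853 for ESC, against 127811 for MEF. Another Rps3 probe read 45667 in iPS-OSH cells, 26321 in iPS-J cells and 67099 in ESC, against 29712 in MEF, so that iPS-J was highest by one probe and lowest by the other of these. Another, dimmer probe read 2333 for iPS-OSH, 2655 for iPS-J and 3099 for ESC, against 3314 for MEF. Such disagreement was common among cytosolic genes with several probes. Their other probes had the same sign as the probe used in 62 of 100 cases for iPS-OSH over MEF, in 52 of 99 for iPS-J and in 55 of 99 for ESC. The median gap between probes of a gene was 0.31, 0.36 and 0.54 on the log2 scale in these comparisons, above the spot-to-spot SD.

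Names of pseudogenes made up 47 of the 131 cytosolic members with a value. On the array, 43 of them were well above background on all 4 arrays and 40 had a median signal over 10000. Only 6 of them shared a run of 30 bases or more with a probe of the working gene, the longest being 54 bases, but transcripts of near-identical copies can bind these probes, and signal under a pseudogene name cannot be credited to the pseudogene. Their median log2 ratio over MEF was -0.23 for iPS-OSH, 0.04 for iPS-J and -0.08 for ESC, and 41 of 47 stayed within 2-fold over the 4 arrays. Among the bright ones, Rps24-ps2 had 68331 for iPS-OSH, 55391 for iPS-J and 76427 for ESC, against 113319 for MEF.

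Mitochondrial ribosomal protein genes were spread more widely and were, with the 75th percentile scaling, more often higher than lower in the pluripotent populations. Of 76 in the set, 9 were at least 2-fold higher and 1 lower in iPS-OSH than in MEF, 14 higher and 1 lower in iPS-J, and 11 higher and 4 lower in ESC. Without scaling the direction of these counts turned in iPS-J and ESC, with 5 higher and 4 lower in iPS-OSH, 3 higher and 5 lower in iPS-J, and 3 higher and 11 lower in ESC. With the main scaling, the higher members made up 11.8% for iPS-OSH, 18.4% for iPS-J and 14.5% for ESC, near the share of all genes given above in both iPS lines and under it in ESC. The lower members made up 1.32%, 1.32% and 5.26%, under the share of all genes in each comparison. The SD of their log2 ratios over MEF was 0.64 for iPS-OSH, 0.67 for iPS-J and 0.77 for ESC. Over the 4 arrays, 26 of 75 mitochondrial subunit genes, or 34.7%, ranged over 2-fold or more, against 51.6% of 4314 genes outside the sets with a median signal from 5000 to 50000. MEF was the lowest of the 4 arrays for 39 of these 75 genes, beside 8900 of 31937 genes well above background on some array. The count of 39 was 25 to 44 over the alternatives tried.

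**Figure D2:**
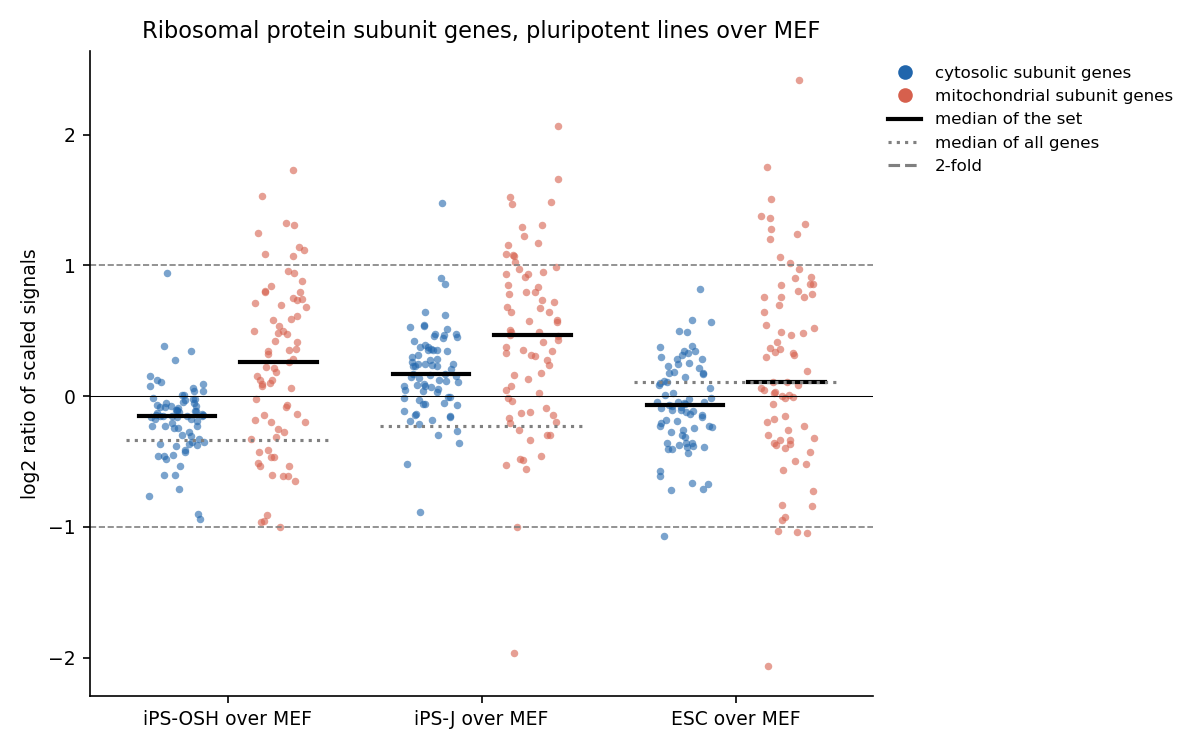
Log2 ratio of scaled signals over MEF for each cytosolic (blue) and mitochondrial (red) subunit gene, for iPS-OSH, iPS-J and ESC. Black bars are set medians, dotted lines the median of all genes tested and dashed lines 2-fold. The cytosolic genes stay almost all within 2-fold, and the mitochondrial genes spread further. With this scaling the mitochondrial genes lie mostly above 0 in iPS-OSH and iPS-J, and in ESC their median lies at that of all genes.

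Mrps31, a small-subunit protein found only in mitochondrial ribosomes, was the highest mitochondrial member over MEF in iPS-J and ESC. It had 12784 in iPS-OSH cells, 18535 in iPS-J cells and 23696 in ESC, against 4431 in MEF. All 3 pluripotent arrays were above MEF, by 2.88-fold, 4.18-fold and 5.35-fold. Mrps9, a small-subunit protein with bacterial relatives, had 6117 for iPS-OSH, 4909 for iPS-J and 9540 for ESC, against 2823 for MEF, past 2-fold in iPS-OSH and ESC. Mrps2, another small-subunit protein shared with bacteria, had 7194 in iPS-OSH cells, 5557 in iPS-J cells and 5881 in ESC, against 2901 in MEF. Its second probe gave log2 ratios over MEF of 0.79 for iPS-OSH, 0.24 for iPS-J and 0.66 for ESC, each under 2-fold. Mrps24 was highest in iPS-J, with 21055 for iPS-OSH, 28372 for iPS-J and 16056 for ESC, against 11417 for MEF. Mrps5, named here after its values were seen, had 3319 in iPS-OSH cells, 4385 in iPS-J cells and 4768 in ESC, against 1968 in MEF.

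In the large subunit, Mrpl15 led in iPS-OSH, with 32540 for iPS-OSH, 30921 for iPS-J and 25189 for ESC, against 9788 for MEF. Its second probe had 7533 in iPS-OSH cells, 2987 in iPS-J cells and 4518 in ESC, against 3649 in MEF, so that only iPS-OSH was at least 2-fold above MEF by both probes. Mrpl38 had 6744 for iPS-OSH, 5709 for iPS-J and 7677 for ESC, against 2697 for MEF, and was at least 2-fold higher in all 3. Mrpl47 had 12728 in iPS-OSH cells, 16965 in iPS-J cells and 13988 in ESC, against 6066 in MEF, also at least 2-fold higher in all 3. One of its other probes gave nearly the same ratios, 1.16, 1.55 and 1.19 on the log2 scale, and the other, with signals of 51.9 to 116, ran the opposite way. Mrpl49 had 8987 for iPS-OSH, 10843 for iPS-J and 7420 for ESC, against 3780 for MEF, and its second probe gave log2 ratios of 1.36, 1.28 and 0.63.

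Mrpl10 and Mrpl12 form the stalk of the mitochondrial large subunit, and Mrpl12 also binds the mitochondrial RNA polymerase. Mrpl10 had 6698 in iPS-OSH cells, 6415 in iPS-J cells and 9978 in ESC, against 4000 in MEF, at least 2-fold higher in ESC. Mrpl12 had 38026 for iPS-OSH, 44573 for iPS-J and 41139 for ESC, against 21921 for MEF, with log2 ratios of 0.79, 1.02 and 0.91. Mrpl45, which helps hold the ribosome to the inner membrane, had 17519 in iPS-OSH cells, 26143 in iPS-J cells and 27754 in ESC, against 10678 in MEF. Mrpl44, which carries a ribonuclease III fold, was highest in iPS-OSH, with 7223 for iPS-OSH, 5607 for iPS-J and 4286 for ESC, against 3401 for MEF. Mrpl1, named after its values were seen, had 2821 in iPS-OSH cells, 4032 in iPS-J cells and 3429 in ESC, against 1452 in MEF.

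Mrps6 went the other way. This small-subunit protein had 26690 for iPS-OSH, 13663 for iPS-J and 12750 for ESC, against 53433 for MEF, just past 2-fold lower in iPS-OSH and with log2 ratios of -1.97 in iPS-J and -2.07 in ESC. The iPS-OSH array lay between the other pluripotent arrays and MEF. The reference annotation places Slc5a3, a transporter of myo-inositol, inside the span of Mrps6, and the 2 Slc5a3 probes were also lowest in iPS-J and ESC and highest in MEF. They read 502 and 1306 in iPS-OSH, 292 and 424 in iPS-J, and 249 and 387 in ESC, against 738 and 2856 in MEF, and signal from the 2 overlapping genes was not separated. In ESC, 3 further members were at least 2-fold lower than in MEF. Mrpl41 had 9009 in iPS-OSH cells, 8796 in iPS-J cells and 8577 in ESC, against 17569 in MEF, but its dimmer second probe had 189, 143 and 199, against 211. Mrpl52 had 40019 for iPS-OSH, 43499 for iPS-J and 29676 for ESC, against 61116 for MEF. Mrps21 had 17425 in iPS-OSH cells, 22257 in iPS-J cells and 13277 in ESC, against 27382 in MEF.

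The 3 Mrps18 proteins are relatives of a single bacterial protein. Mrps18a had 12002 for iPS-OSH, 13077 for iPS-J and 9350 for ESC, against 9445 for MEF. Mrps18b had 32431 in iPS-OSH cells, 36569 in iPS-J cells and 32129 in ESC, against 22940 in MEF. Mrps18c had 11628 for iPS-OSH, 13559 for iPS-J and 9444 for ESC, against 13338 for MEF. None of the 3 differed by 2-fold between any pair of arrays. Mrpl32, whose cleavage in the matrix licenses mitochondrial ribosome assembly, was the narrowest mitochondrial member, at 8633 in iPS-OSH cells, 8588 in iPS-J cells and 9369 in ESC, against 9146 in MEF, and was picked out after its values were seen. Mrps27, with no usable ESC spot, had 1863 in iPS-OSH and 2457 in iPS-J, against 1089 in MEF.

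**Figure D3:**
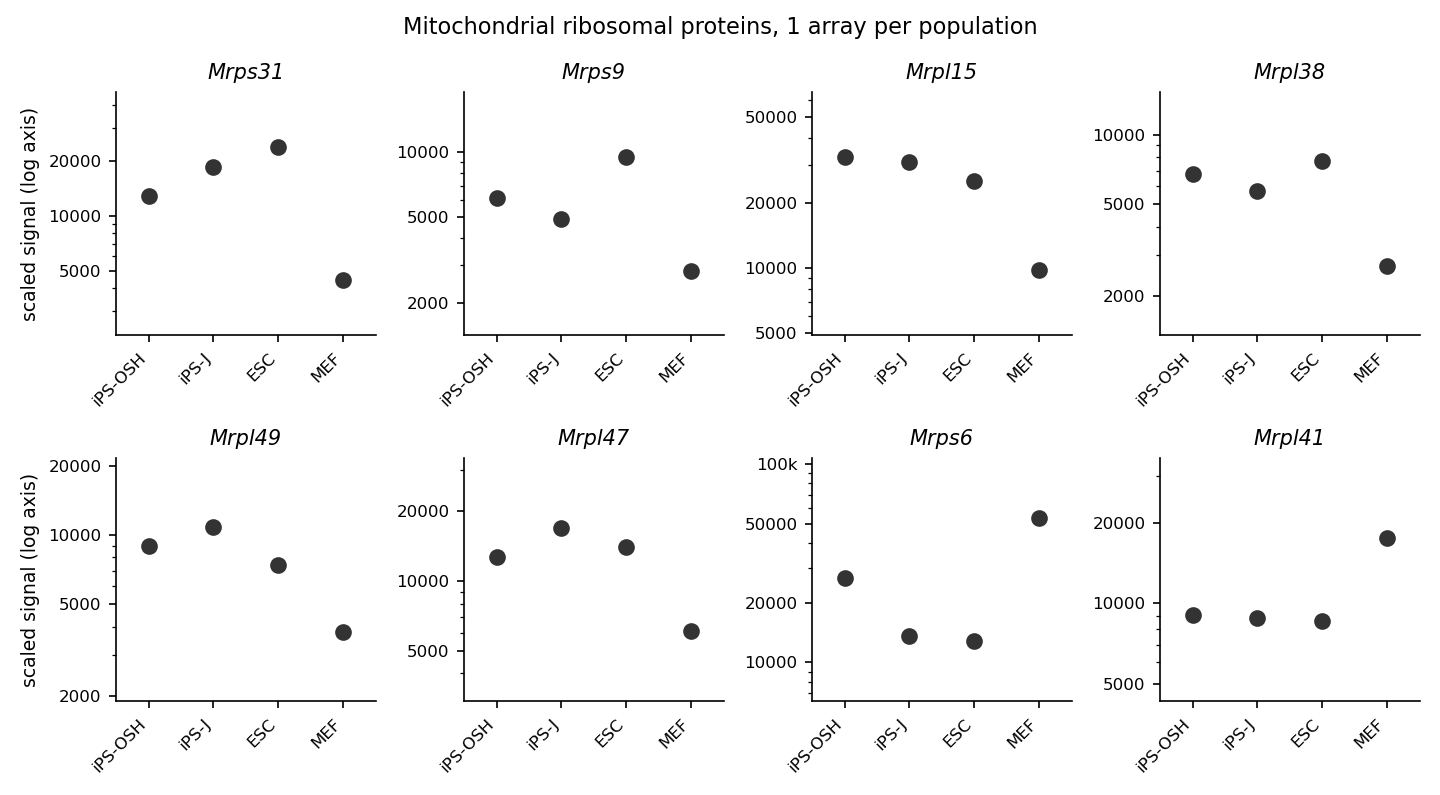
Scaled signal (log axis, a separate range in each panel) of 8 mitochondrial ribosomal proteins on the iPS-OSH, iPS-J, ESC and MEF arrays, 1 point per array. Mrps31, Mrps9, Mrpl15, Mrpl38, Mrpl49 and Mrpl47 are lowest in MEF, and Mrps6 and Mrpl41 are highest there.

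Set against one another, the cytosolic members lay below the mitochondrial members in each pluripotent population over MEF. The cytosolic median was -0.15 and the mitochondrial median 0.24 on the log2 scale in iPS-OSH over MEF, a gap of -0.40. In iPS-J over MEF the medians were 0.15 and 0.46, a gap of -0.32, and in ESC over MEF -0.06 and 0.11, a gap of -0.17. These 3 gaps share the MEF array. The gap does not move when an array is multiplied by a constant, and over all alternatives tried it ran from -0.41 to -0.32 for iPS-OSH, from -0.41 to -0.28 for iPS-J and from -0.35 to -0.16 for ESC. With subunit genes alone it was -0.41, -0.30 and -0.18.

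The medians themselves do move with the scaling. The median of all genes over MEF was -0.34 for iPS-OSH, -0.23 for iPS-J and 0.11 for ESC, and it moved by over 0.1 between scalings, for iPS-J from -0.74 without scaling to -0.03 after quantile normalization. Relative to the all-gene median, the cytosolic median stood at 0.18 for iPS-OSH, 0.37 for iPS-J and -0.17 for ESC, and the mitochondrial median at 0.58 and 0.69, while in ESC it coincided with that of all genes. The sign of the cytosolic median over MEF turned positive for iPS-OSH after quantile normalization (0.04), negative for iPS-J with spike-in scaling (-0.01) and without scaling (-0.36), and positive for ESC when the 75th percentile was taken over probes detected on all arrays (0.18) and after quantile normalization. The mitochondrial median over MEF stayed positive for iPS-OSH, from 0.07 to 0.36, but turned negative without scaling for iPS-J (-0.05) and ESC (-0.33), and with spike-in scaling for ESC (-0.11).

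Between the pluripotent populations fewer members of either set passed 2-fold than against MEF, but the set medians were not always nearer 0. In iPS-J over ESC the cytosolic median was 0.23 and the mitochondrial median 0.27. Against ESC, 0 of 131 cytosolic members were at least 2-fold higher and 4 lower in iPS-OSH, where 8.81% of all genes were higher and 27.3% lower. In iPS-J over ESC 3 of 129 were higher and 0 lower, beside 5.46% and 24.2% of all genes. Of 76 mitochondrial members, 1 was higher and 1 lower in iPS-OSH, and 1 higher and 0 lower in iPS-J. Beside Rpl22l1 and Rpl3l, the members lower in iPS-OSH than in ESC included Mrpl23, with 14127 in iPS-OSH and 29358 in ESC. Mrpl23 had 29046 in iPS-J and 20487 in MEF, so that iPS-OSH was the low array. In iPS-J over ESC, Mrps17 was higher, with 15785 in iPS-J and 7102 in ESC, as was Rps13, with 251659 in iPS-J and 114952 in ESC. The second Mrps17 probe had 11531 in iPS-J and 6959 in ESC, and the second Rps13 probe had 163497 in iPS-J and 127910 in ESC, both under 2-fold. The gap between set medians over ESC was -0.13 in iPS-OSH and -0.04 in iPS-J, and turned to 0.09 and 0.02 after quantile normalization.

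Both iPS lines were scanned in the same session and share a strain. In iPS-OSH over iPS-J, 0 of 129 cytosolic members were at least 2-fold higher and 3 lower, Rpl22l1, Rpl3l and Rps25, and of 76 mitochondrial members 0 were higher and 1 lower, Mrpl23. Over all genes 8.29% were higher and 7.45% lower. The cytosolic median was -0.34 and the mitochondrial median -0.23. Above 0 were 5 of 76 cytosolic and 18 of 75 mitochondrial subunit genes, beside 13820 of all 29287 genes tested. The cytosolic median was nearer 0 after quantile normalization (-0.08), with spike-in scaling (-0.08) and without scaling (-0.01), and the mitochondrial median turned positive with spike-in scaling (0.03) and without scaling (0.10). The median of all genes moved with them, from 0 by the 75th percentile to 0.22 with spike-in scaling and 0.29 without scaling, and stood above both set medians under each of these scalings.

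**Figure D4:**
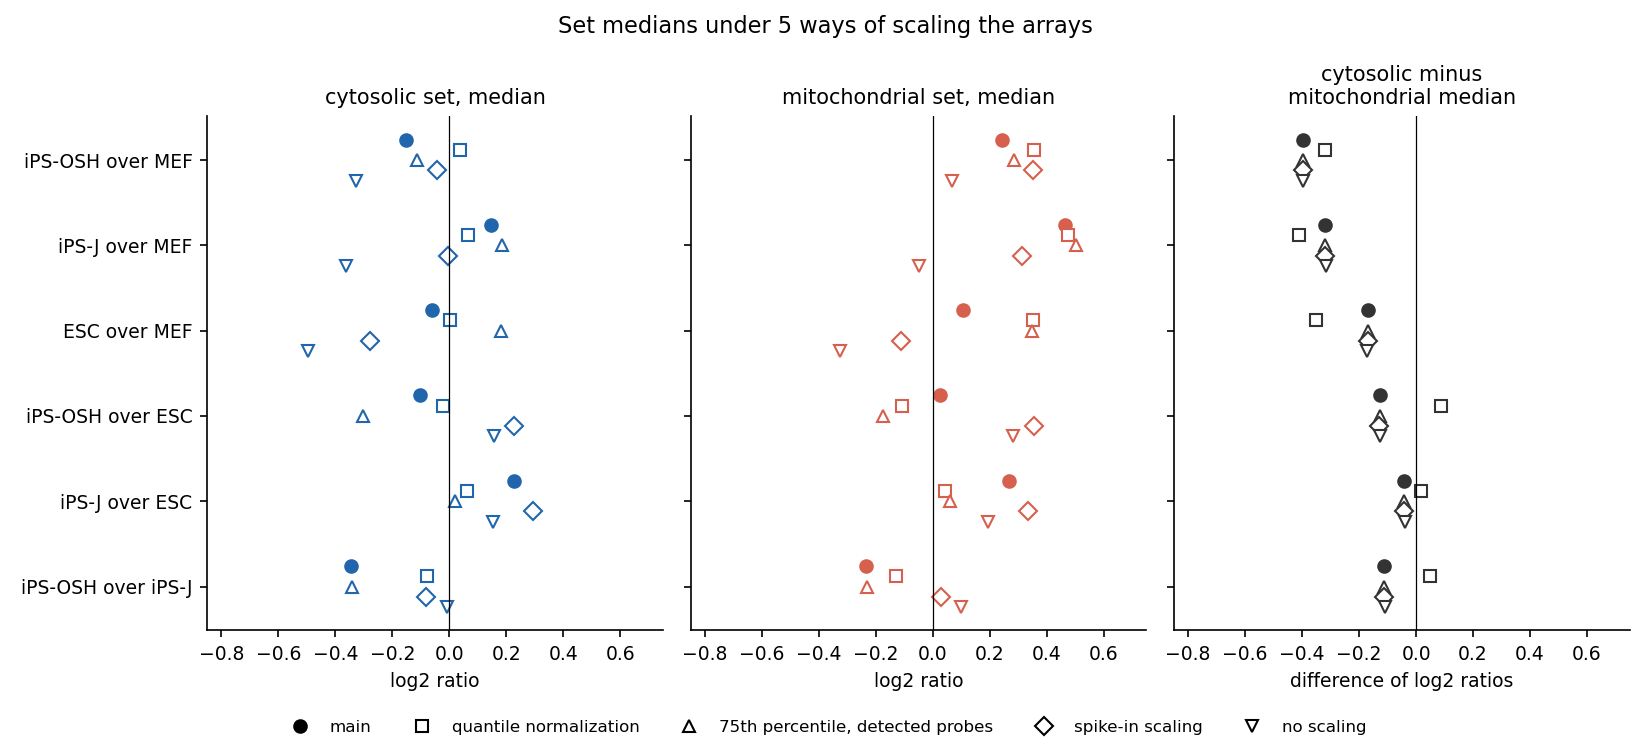
Median log2 ratio of the cytosolic set (left), of the mitochondrial set (middle) and the difference between them (right) in the 6 comparisons. Each symbol is 1 of 5 ways of scaling the arrays, with the filled circle for the 75th percentile over all probes. Several set medians cross 0 between scalings, the mitochondrial one of iPS-OSH over MEF does not, and the difference between the sets stays below 0 in the 3 comparisons with MEF.

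The genes of ribosome production were then taken from lists chosen with earlier results of these data known. Their counts stand beside 13.4% of all genes at least 2-fold higher and 24.3% lower in iPS-OSH over MEF, 16.4% and 24.7% in iPS-J, and 22.7% and 16.6% in ESC. Of 62 genes of cytosolic ribosome assembly, 30 were at least 2-fold higher and 0 lower in iPS-OSH than in MEF, 29 higher and 0 lower in iPS-J, and 14 higher and 2 lower in ESC. Their median log2 ratio over MEF was 0.97 for iPS-OSH, 0.95 for iPS-J and 0.77 for ESC, and ran from 0.34 to 1.08 over these comparisons under the alternatives tried. Rrp1b, a nucleolar protein of large-subunit assembly, had 5513 for iPS-OSH, 3607 for iPS-J and 2909 for ESC, against 700 for MEF. Ncl, encoding the abundant nucleolar protein nucleolin, had 168574 in iPS-OSH cells, 145485 in iPS-J cells and 146302 in ESC, against 48675 in MEF. Mphosph10, a part of the complex that processes the small-subunit ribosomal RNA, had 2509 for iPS-OSH, 2945 for iPS-J and 1199 for ESC, against 696 for MEF. Wdr12 and Heatr1, which act in large-subunit maturation and in ribosomal RNA synthesis and processing, were at least 2-fold higher in all 3 populations. The 2 genes lower in ESC were Eif6, which keeps the subunits apart until the large one is mature, with 8879 in ESC and 18982 in MEF, and Sbds, which helps to release Eif6, with 4873 in ESC and 10046 in MEF.

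RNA polymerase I transcribes the large ribosomal RNA precursor. Of 14 of its genes tested, 7 passed 2-fold upward for iPS-OSH, 4 for iPS-J and 6 for ESC, and 0 were lower in each. Polr1c, a subunit shared with RNA polymerase III, had 28638 in iPS-OSH cells, 32296 in iPS-J cells and 26490 in ESC, against 10756 in MEF. Polr1b, the second largest subunit, was uneven among the pluripotent populations, with 1927 for iPS-OSH, 929 for iPS-J and 5829 for ESC, against 1733 for MEF. Translation factors of the cytosol had medians of 0.26 for iPS-OSH, 0.49 for iPS-J and 0.27 for ESC over MEF, with 3 of 45 higher and 1 lower in iPS-OSH, 4 of 44 higher and 2 lower in iPS-J, and 3 of 45 higher and 2 lower in ESC. Eif4ebp2, a repressor of the cap-binding protein, had 14663 in iPS-OSH cells, 15306 in iPS-J cells and 12398 in ESC, against 5822 in MEF.

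The list of mitochondrial ribosome assembly and translation held 49 genes. Of these, 11 were at least 2-fold higher and 0 lower in iPS-OSH, 13 higher and 1 lower in iPS-J, and 14 higher and 2 lower in ESC, beside 13.4%, 16.4% and 22.7% of all genes higher. Their median log2 ratio over MEF was 0.64 for iPS-OSH, 0.69 for iPS-J and 0.63 for ESC. Tfam, which packages and transcribes mitochondrial DNA, had 12288 for iPS-OSH, 14275 for iPS-J and 13003 for ESC, against 4110 for MEF. Tfb1m, which methylates the small ribosomal RNA of mitochondria, had 3373 in iPS-OSH cells, 5391 in iPS-J cells and 5291 in ESC, against 1672 in MEF. Mtrf1l, a release factor, passed 2-fold lower in iPS-J and ESC, with 1409 for iPS-OSH, 1148 for iPS-J and 1125 for ESC, against 2644 for MEF.

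Some ribosomal proteins carry other names and lie outside the sets. Fau, whose product is cut to yield a small-subunit protein, had 260532 in iPS-OSH cells, 135142 in iPS-J cells and 348738 in ESC, against 255746 in MEF. Gnb2l1 (Rack1) stayed within 2-fold, and of 7 mitochondrial ones Ptcd3 was at least 2-fold higher in iPS-J and ESC and the other 6 stayed within 2-fold of MEF. The median of the 7 over MEF was -0.18 for iPS-OSH, 0.36 for iPS-J and -0.02 for ESC, under that of the mitochondrial set in each. Among 24 growth regulators of ribosome synthesis, 1 was higher and 4 lower in iPS-OSH, 4 higher and 4 lower in iPS-J, and 2 higher and 5 lower in ESC, shares near or under those of all genes except for the lower genes in ESC, 5 of 24 beside 16.6%. Mycn, a transcription factor of the Myc family, had 12126 for iPS-OSH, 20236 for iPS-J and 20269 for ESC, against 120 for MEF. Myc had 7024 in iPS-OSH cells, 3142 in iPS-J cells and 1048 in ESC, against 4137 in MEF. Rps6kb1, an S6 kinase, had 8840 for iPS-OSH, 8589 for iPS-J and 8763 for ESC, against 22140 for MEF.

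**Figure D5:**
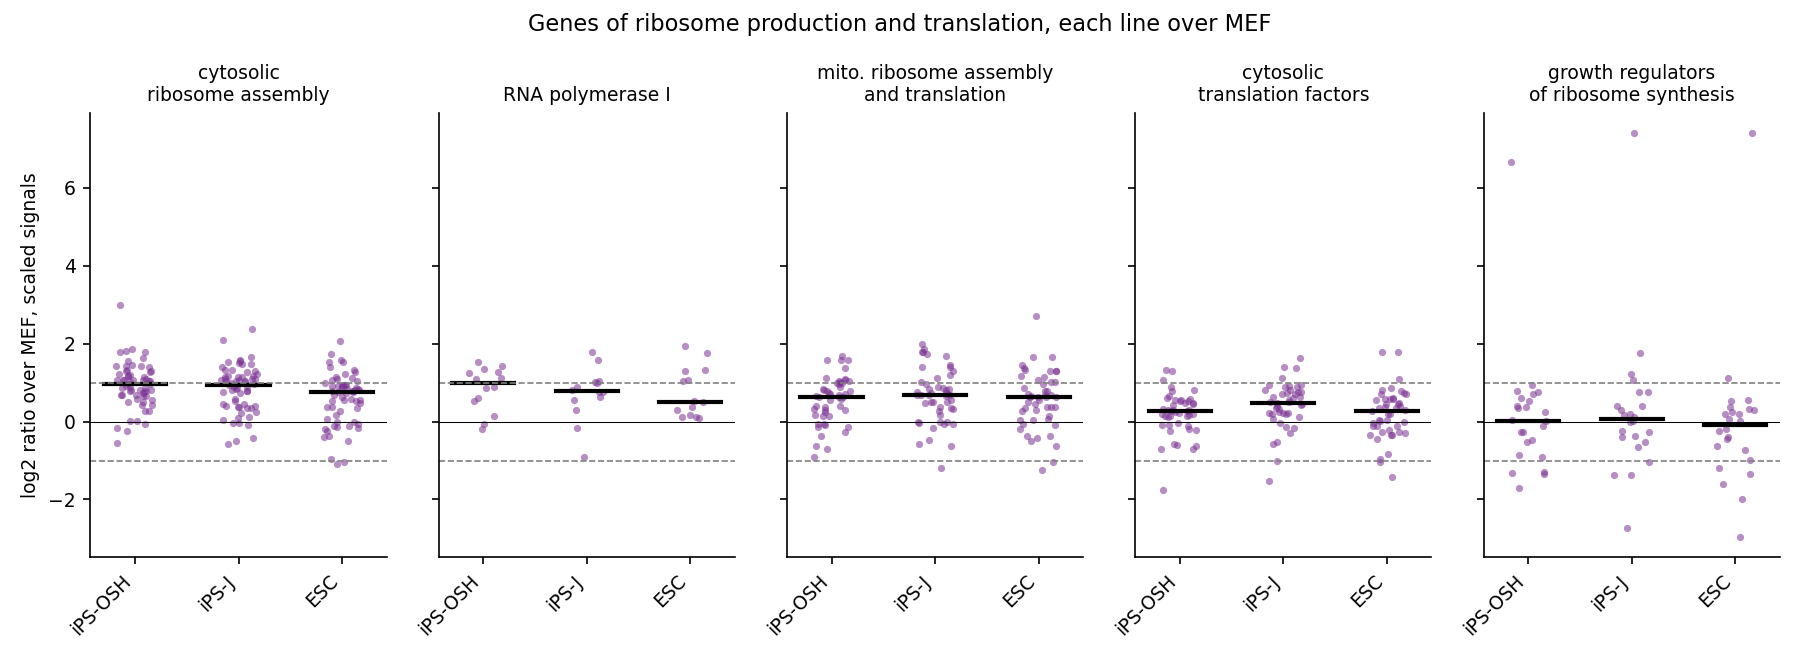
Log2 ratio of scaled signals over MEF for the genes of 5 lists in iPS-OSH, iPS-J and ESC, 1 point per gene, with black bars for medians and dashed lines for 2-fold. Ribosome assembly genes have medians of 0.97, 0.95 and 0.77, above those of the translation factors, and the highest point among growth regulators is Mycn.

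Other measures also differed in these comparisons. Of 20 proliferation genes, 9 were at least 2-fold higher and 1 lower in iPS-OSH than in MEF, 13 higher and 0 lower in iPS-J, and 7 higher and 0 lower in ESC, beside 13.4%, 16.4% and 22.7% of all genes higher. All 10 pluripotency markers were well above background in iPS-OSH, iPS-J and ESC, with summed signals of 353041, 488296 and 575426, against 1892 in MEF, where Sox2 and Zfp42 were not above background. All 10 fibroblast markers were well above background on every array, with sums of 358427 in iPS-OSH cells, 66144 in iPS-J cells and 48001 in ESC, against 1340900 in MEF, so that iPS-OSH carried more fibroblast-marker signal than the other pluripotent arrays. The primitive or visceral endoderm markers summed to 8222 in iPS-OSH, 146247 in iPS-J, 20296 in ESC and 3814 in MEF, with 9 of 10 well above background on each array, Afp not in the pluripotent populations and Ttr not in MEF. Such sums are led by the brightest probes, and Lama1 gave 76509 of the iPS-J sum. Gata6 and Dab2 were higher in MEF than in iPS-OSH and ESC. The 6 macrophage markers, well above background on every array, summed to 19861 in iPS-OSH, 13971 in iPS-J, 8391 in ESC and 32377 in MEF. The part of proliferation and of other cells in the ribosomal protein differences was not tested, and fewer cells of a type cannot be told apart from less RNA per cell.

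The start regions of the 2 sets differ in sequence in ways the names did not use. Most vertebrate cytosolic ribosomal protein messages begin with a C and a run of pyrimidines, through which their translation answers to growth signals. In RefSeq promoter sequences of GRCm38.p6, which hold 250 bases before and 50 after the annotated start, a C followed by at least 7 pyrimidines on the sense strand, searched from 20 bases before the start, stood in 45 of 61 cytosolic subunit genes (73.8%), in 15 of 69 mitochondrial subunit genes (21.7%) and in 20.03% of all 27025 promoters. These windows of 30 bases are shown with the tract in capitals for members described above.
Rps25, chr9:44407689-44407718, plus strand: gggcttCCTTTTTTTCCgacatcttagcga
Rpl4, chr9:64173364-64173393, plus strand: acaagtCTTTCCTTTTCCTgtgggagcagc
Rps6, chr4:86857345-86857374, minus strand: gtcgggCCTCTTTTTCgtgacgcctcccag
Rplp2, chr7:141447641-141447670, plus strand: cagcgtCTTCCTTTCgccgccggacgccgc
Rpl22l1, chr3:28805505-28805534, plus strand: cccgttCTCTTCCCacggctgcagctcaac
Within the stretch searched, the marked tract began 19 bases before the annotated start in Rps25 and 3 bases after it in Rpl22l1. The ctt printed ahead of the capitals in Rps25 is also pyrimidine, and its C lies outside the stretch searched. The whole run in Rps25 thus starts further upstream than the marked part. The annotated starts can be off by some bases. No such tract was found in this window of Rpl10l, Rpl39l, Rpl22, Rps3, Rpsa, Rpl19 or Rpl23.

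Over the full 300 bases and both strands, CCGGAAG, the core of ETS factor sites such as that of Gabpa, was found in 37.7% of cytosolic and 36.2% of mitochondrial subunit genes and in 9.12% of all promoters. AAGATGGC, the core of the Yy1 motif, was found in 6.56% and 17.4%, with 2.88% of all promoters. GCGCATGC, the motif of Nrf1, a regulator of respiratory genes, was found in 3.28% and 11.6%, with 2.80% of all. TCTCGCGA was found in 16.4% and 1.45%, with 1.08% of all. CACGTG, the E-box bound by Myc proteins, was found in 8.20% and 7.25%, with 7.24% of all promoters. TATAAA, the TATA box, was searched on the sense strand and found in 9.84% and 4.35%, with 8.88% of all. The 7 motifs given were kept from 18 looked at, after their shares were seen, and a match describes the letters of a promoter and not binding in these cells. Gabpa had 2806 for iPS-OSH, 4521 for iPS-J and 3140 for ESC, against 2158 for MEF.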

How the data were processed

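RNA of 4 mouse cell populations, 1 array each, was labelled with Cy3 after low input amplification and hybridized to 1-colour Agilent arrays on 1 slide, per the labels. The deposited scanner files hold the intensity of 62976 spots per array, background-subtracted and detrended by Agilent Feature Extraction 10.5.1.1 and, per the file headers, not normalized across arrays. The separate value tables of the authors hold intensity within 0.497% of it. Gene names came from the newer annotation in the iPS-OSH, iPS-J and ESC files, since the MEF file carried an earlier one with 180 of the 210 names and no others.

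Of 55681 probes that were not controls, 67.0% to 81.7% were well above background per array. Spots with outlier calls (203 to 531 per array) were left out, and 1 spot, on ESC, was saturated. The processed intensity was scaled to the 75th percentile of each array (1241 to 1765 before scaling), and each gene took its brightest probe by its mean signal. Genes well above background on either of the 2 arrays compared were used. With 1 such array, the dim side was set to the faintest signal that passed on that array, or to the probe's own signal if higher, and the result is given as "at least". A bound on the far side of 0 was counted as no difference. The number of arrays limits the precision. The calculation was checked on simulated data.

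The members and gene lists were chosen with earlier results of these data known. Named members were, per comparison and set, the 4 largest differences in each direction, the 5 with the widest range in each set, fixed paralogs, stalk proteins and other well-known members, and in each list the 3 largest differences from MEF in each direction. The range over the 4 arrays, genes of a given brightness and the promoter motifs were added later. Names, promoters and overlaps came from RefSeq (GRCm38.p6), and probe positions, in mm9, from the files. Alternatives were normexp (offset 50) and quantile normalization (limma 3.58.1, R 4.3.3), a percentile over the probes detected everywhere, 8 spike-in probes for scaling, the deposited values without scaling, the median over a gene's probes, a stricter filter and none. Other steps used Python 3.11.15, numpy 2.4.6 and pandas 2.3.3.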

Additional observations from a re-analysis of the deposited data

How the results depend on the processing

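The gap between the cytosolic and mitochondrial medians, which a constant factor per array cannot move, stayed below 0 in all 6 comparisons under the alternatives tried except quantile normalization. There it turned to 0.086 in iPS-OSH over ESC, 0.017 in iPS-J over ESC and 0.050 in iPS-OSH over iPS-J, and the cause was not tested. In ESC over MEF it was -0.17, with -0.28 after normexp and -0.35 after quantile normalization. Single members were recalculated only if chosen by the rule for named members. Of those at least 2-fold different, 1 changed direction, Rps3 in iPS-J over ESC, at -1.35 with the median over its probes. Without scaling, counts of members at least 2-fold higher than MEF in the mitochondrial set were 5 for iPS-OSH, 3 for iPS-J and 3 for ESC, where the main counts were 9, 14 and 11. With the percentile over probes detected on all arrays, mitochondrial members higher in ESC were 21. Without scaling, 11 mitochondrial and 14 cytosolic members were lower in ESC than in MEF, against 4 and 1, and 9 cytosolic members were lower in iPS-J, against 1. Cytosolic members lower in iPS-OSH than in MEF were 6 without scaling, against 2. With subunit gene names alone, cytosolic members higher than MEF were 0, 1 and 0 in iPS-OSH, iPS-J and ESC, against 4, 5 and 4. Over all 6 comparisons, 86 recalculated counts differed and 154 did not differ by more than 1.5 times. Keeping outlier spots and the subunit names alone were chosen after seeing the data. No paired analysis was possible because each population has 1 array. Signals near background moved with normexp: Rpl10l over MEF was 8.94 in iPS-OSH, against 11.01, and Rpl3l in iPS-J over MEF was 2.17, against 2.78.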
